A study of Sus scrofa with 12 samples.

Results

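Aggressiveness was compared within the pigs of low stress response, using liver RNA of 3 animals of high and 3 of low aggressiveness. These 6 animals were chosen by their label for stress response alone, out of 12 in the series. All 12 were adult German Landrace pigs, and RNA of each liver was hybridised to its own Affymetrix porcine array, without pooling. Each group held 1 female and 2 males, and no treatment, transgene or diet was named for any animal. The other 6 animals, 3 of high and 3 of low aggressiveness at high stress response, entered the model for the spread between animals and the test of a difference. How either trait was scored, and which animals were litter mates, is not given by the labels. The first word of an animal's name is its stress response and the second its aggressiveness, and the replicate number is only a name, so that low-high 3 had low stress response and high aggressiveness. The females at low stress response were low-low 1 and low-high 3.

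The question of the comparison is which liver transcripts differ with aggressiveness when the stress response is low. The liver makes most plasma proteins, stores and releases glucose, makes cholesterol and bile acids, and breaks down amino acids, drugs and steroids. It takes part in the hormonal side of behaviour as a target of cortisol, adrenaline, glucagon and growth hormone, and as the organ that clears steroids and monoamines from the blood. Stress hormones act there on glucose release and on genes such as those of the insulin-like growth factor binding proteins.

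The labelled tissue was checked against its markers. The hepatocyte genes ALB (albumin) and TF (transferrin) had signals from 35648 to 61125 and from 33152 to 55006 in the 6 livers. Of 12 genes of skeletal muscle, fat and pancreas, 9 were on the array by name and 1, FABP4 of fat cells, passed the filter on low values. The sex labels matched the signal of the Y-linked gene EIF1AY, which was 1.80 and 10.0 in the females and from 418 to 666 in the males of low stress response. Median signals of the 6 arrays lay between 93.3 and 117.4, the highest in low-high 3, and their number limits the precision. The log2 values of an array had a median correlation with the other 5 of 0.957 (low-high 3) to 0.966 (low-high 2), and low-low 3 had 0.959. Along the first principal component of the 6 arrays, 27.2% of the variance, low-high 3 lay at -47.54 and the other 5 between -5.67 and 22.82. The deposited files hold no scan date or slide, so that a processing batch was not tested.

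Differences are given as log2 fold changes, high minus low aggressiveness, of log2(signal + 16), with the standard error (SE) from limma. The constant 16 damps noise near background and understates the change of weak probe sets. With limma, 0 of 15999 probe sets tested (0%) had a Benjamini-Hochberg adjusted p under 0.05, and the smallest adjusted p was 0.933. No gene named in what follows for low stress response passed, and each such gene had an adjusted p of 1 over all probe sets. Unadjusted p under 0.05 was reached by 323 probe sets with a higher (2.02%) and 188 with a lower signal (1.18%), or 511 in all against 799.95 expected if no probe set differed. An unadjusted p under 0.01 was reached by 83 higher (0.519%) and 30 lower probe sets (0.188%), or 113 against 159.99 expected, and by 72 and 45 under quantile normalization. Of the 83, 29 had a mean signal at low aggressiveness below 40.58, the filter's lower limit, beside 432 of all 15999. Of the 30, 12 had a mean signal at high aggressiveness below that limit, beside 287 of all 15999. Such probe sets passed the filter through other groups. Groups that did not overlap, with all 3 animals on one side, were found in 680 probe sets that were higher (4.25%) and 556 that were lower (3.48%). The median log2 fold change was 0.01 over 5810 genes, of which 3001 were above and 2809 below 0, and its standard deviation (SD) over genes was 0.27. The genes below are therefore those with the smallest p, described by their values in each animal.

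Among the 12 genes with the smallest p on the higher side was OXTR. OXTR, the receptor of oxytocin, a hormone known for its part in social behaviour, had signals of 98.1, 96.2 and 96.5 in the aggressive pigs low-high 1 to 3. Its signals were 43.0, 28.9 and 57.1 in low-low 1 to 3, so that the groups did not overlap. The log2 fold change of OXTR was 0.96 ± 0.21 (SE, unadjusted p = 0.00103). The signals were close together in the aggressive group, 96.9 ± 1.01 (SD, n = 3), and spread in the other, 43.0 ± 14.1 (SD, n = 3). At high stress response OXTR had 60.2, 95.3 and 63.8 at high and 68.9, 72.7 and 82.7 at low aggressiveness, and the groups overlapped.

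EDNRB, a receptor of endothelins, had signals of 181, 186 and 267 at high and 93.3, 82.0 and 42.6 at low aggressiveness. Its log2 fold change was 1.39 ± 0.36 (SE), and all 3 aggressive pigs were above the others. GNG3, a G protein gamma subunit best known from neurons, had 60.4, 50.4 and 71.7 against 12.6, 31.4 and 5.91. Its log2 fold change was 1.30 ± 0.29 (SE), but the mean of the low group, 16.6 ± 13.2 (SD, n = 3), lay below 40.58, the filter's lower limit for the mean over 12 arrays, so that the size of this change is uncertain. IGFBP6, which binds insulin-like growth factors with a preference for IGF2, had 157, 157 and 151 against 49.4, 94.6 and 27.0. The 3 aggressive pigs were nearly alike and above the other 3 (log2 fold change 1.34 ± 0.32, SE).

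Also among these 12 genes, MAPRE3, a protein of growing microtubule ends, had signals of 129, 95.2 and 149 at high and 36.1, 29.0 and 75.6 at low aggressiveness, a log2 fold change of 1.21 ± 0.26 (SE). WAS, an activator of actin assembly in blood cells, had 125, 140 and 143 against 83.1, 76.0 and 82.4, a log2 fold change of 0.66 ± 0.17 (SE). ACTR3B, related to a subunit of the actin-nucleating Arp complex, had 84.2, 80.7 and 76.8 against 24.9, 32.5 and 49.4. The log2 fold change of ACTR3B was 0.93 ± 0.24 (SE), with a mean below 40.58 in the low group. VPS37D, of the machinery that sorts membrane proteins for degradation, had 140, 131 and 178 against 76.8, 33.7 and 33.2, a log2 fold change of 1.43 ± 0.34 (SE). In each of these 4 genes the 3 aggressive pigs lay above the 3 others.

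The smallest p of a gene, 0.000902, belonged to ITIH5, a secreted protein that binds hyaluronan of the matrix. Its signals were 470, 527 and 482 at high and 296, 277 and 295 at low aggressiveness, a log2 fold change of 0.74 ± 0.16 (SE). ST3GAL4, which adds sialic acid to glycoproteins, had 289, 294 and 320 against 260, 146 and 165 (0.66 ± 0.18, SE), and its groups were separated by the gap between 260 in the female low-low 1 and 289. SPRP had 181, 83.9 and 178 against 48.1, 58.2 and 59.1 (log2 fold change 1.14 ± 0.28, SE). FAM84A had the largest log2 fold change of the 12, 1.78 ± 0.44 (SE), with 114, 59.2 and 189 against 11.0, 52.3 and 11.0. A second probe set of FAM84A had -0.30 ± 0.69 (SE), and the low group of the first was below 40.58 on average, so that this gene is uncertain.

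**Figure D1:**
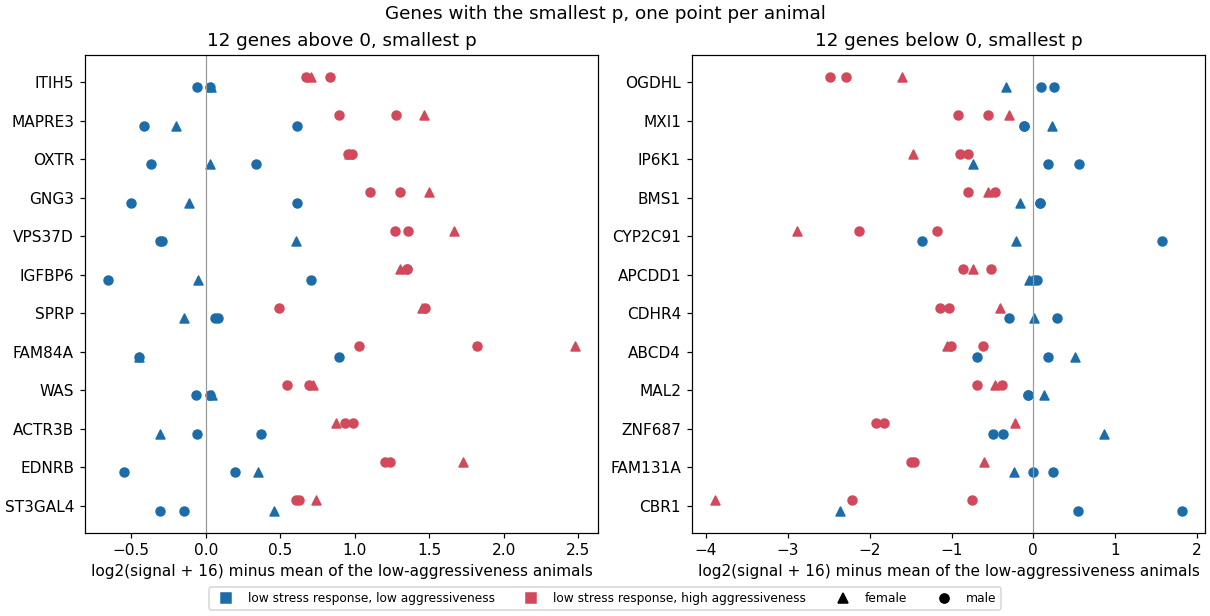
Each point is 1 animal of low stress response, at its log2(signal + 16) minus the mean of the 3 animals of low aggressiveness, for the 12 genes above 0 and the 12 below 0 with the smallest p (triangles female, circles male). All 12 genes on the left and 8 of the 12 on the right have groups that do not overlap, which the choice by small p favours, and none passed over all probe sets.

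On the lower side the gene with the smallest p was OGDHL, an isoenzyme of the oxoglutarate dehydrogenase of the citric acid cycle. Its signals were 216, 249 and 412 in low-high 1 to 3 and 1015, 1367 and 1529 in low-low 1 to 3. The groups lay far apart, with means of 292 ± 105 and 1304 ± 263 (SD, n = 3 each). The log2 fold change of OGDHL was -2.13 ± 0.48 (SE, unadjusted p = 0.0012), and with each animal left out in turn it stayed between -2.60 and -1.89. The female had the highest signal of the aggressive and the lowest of the other group, and in males alone the value was -2.56.

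CYP2C91 and CBR1 had large differences with wide scatter. CYP2C91, a cytochrome P450 of the pig, had signals of 196, 93.6 and 49.2 at high and 398, 172 and 1415 at low aggressiveness, and the groups overlapped. Its log2 fold change of -2.07 ± 0.64 (SE) was -1.30 without low-low 3. CBR1, carbonyl reductase, had 246, 708 and 66.3 against 220, 1767 and 4275. Its log2 fold change was -2.28 ± 0.82 (SE), although low-low 1 lay below 2 of the 3 aggressive pigs, and it was -1.65 without low-low 3. Members of the CYP2C family are similar in sequence, and whether each probe set reads 1 gene was not tested.

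The remaining genes on the lower side had smaller changes. MXI1, which opposes MYC at shared binding sites, had signals of 166, 126 and 202 at high and 299, 231 and 232 at low aggressiveness, a log2 fold change of -0.59 ± 0.17 (SE). APCDD1, a membrane inhibitor of Wnt signals, had 288, 225 and 245 against 403, 435 and 423 (-0.71 ± 0.23, SE), and its second probe set had -0.51 ± 0.40 (SE). The groups did not overlap on either probe set of APCDD1. MAL2, which carries proteins across polarised cells such as hepatocytes, had 1073, 1335 and 1262 against 1905, 1672 and 1673 (-0.51 ± 0.17, SE). BMS1, of small ribosomal subunit assembly, had 204, 259 and 245 against 326, 388 and 388 (-0.61 ± 0.18, SE), and the groups were apart. IP6K1, an inositol phosphate kinase, had 90.4, 83.6 and 51.3 against 95.9, 194 and 257 (-1.06 ± 0.32, SE). CDHR4, of the cadherin family, had -0.86 and FAM131A -1.19, both without overlap. ZNF687 had -1.32 with overlapping groups, and for these last 3 the aggressive group was below 40.58 on average. ABCD4, a lysosomal transporter needed for cobalamin, had -0.89 ± 0.30 (SE), with overlap, and its other probe sets had -0.15 and 0.06.

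Hormone handling was described from lists of pathway genes. Of 16 measured genes of adrenergic, glucagon and vasopressin receptors and signalling, 9 were above and 7 below 0, and the median was 0.02, beside 0.01 over all genes. The only receptors among the 16 were ADRB3 (-0.81 ± 0.52, SE) and ADRB1 (-0.22 ± 0.41, SE). No glucagon or vasopressin receptor was among the genes measured. In this list 3 of 16 genes were higher at unadjusted p under 0.05, beside 2.02% of all probe sets. GRK5, a kinase that desensitises G protein-coupled receptors, had signals of 181, 171 and 166 at high and 113, 115 and 74.3 at low aggressiveness, a log2 fold change of 0.72 ± 0.20 (SE). CREB1, the transcription factor activated by cyclic AMP, had 78.9, 107 and 55.9 against 13.8, 47.3 and 45.1 (0.95 ± 0.28, SE), with a mean of 35.4 in the low group, below 40.58. RGS2, which shortens G protein signals, had 893, 938 and 1510 against 491, 575 and 602 (0.95 ± 0.41, SE), and its second probe set had 0.78 ± 0.35 (SE). The aggressive pigs lay above the others in all 3 genes on the probe set counted, and on the second of RGS2 the groups overlapped. A relative of RGS2 in the same list, RGS16, had -0.57 ± 0.31 (SE), with 106, 33.1 and 21.2 against 67.0, 77.3 and 78.0.

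Of 12 genes of the insulin-like growth factor and growth hormone axis, 7 were above 0, with a median of 0.09. Of the 12, 2, IGFBP6 and IGFBP1, were higher at unadjusted p under 0.05, beside 2.02% of all probe sets. IGFBP1, a binding protein secreted by hepatocytes and lowered by insulin, had signals of 9717, 8502 and 3684 at high and 1320, 7296 and 3179 at low aggressiveness. Its log2 fold change was 1.10 ± 0.40 (SE) with overlapping groups, and 0.75 without low-low 1, the lowest animal. In males alone the median of this list was -0.05.

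Of 13 genes of cortisol reception, transport and metabolism, 8 were above 0, with a median of 0.14. HSD11B2, which inactivates cortisol, had signals of 139, 132 and 120 at high and 108, 98.9 and 73.7 at low aggressiveness, a log2 fold change of 0.43 ± 0.18 (SE) with no overlap. HSD11B1, which regenerates cortisol in the liver, had 0.12 ± 0.19 (SE), the glucocorticoid receptor NR3C1 had -0.23 ± 0.27 (SE), and the cortisol-binding globulin SERPINA6 had -0.18 ± 0.43 (SE). Their groups overlapped, and the second probe set of NR3C1 that was tested had -0.04 ± 0.42 (SE). Of 20 genes induced by glucocorticoids 12 were above 0, with a median of 0.07. The 1 member with unadjusted p under 0.05 was IGFBP1, on the higher side, beside 2.02% of all probe sets. SERPINA6 was 0.08 without low-high 1, so that its sign rested on that animal.

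Genes that handle sex steroids and monoamines, both tied to aggression in other work, had small differences. Of 8 measured genes of androgen, oestrogen and steroid handling, 6 were above 0, with a median of 0.04, and none had unadjusted p under 0.05. Of 11 genes of monoamine and tryptophan metabolism 6 were above 0, with a median of 0.01 that was -0.02 under quantile normalization. MAOA, which breaks down serotonin and noradrenaline, had signals of 1310, 1278 and 1459 at high and 1288, 1740 and 1286 at low aggressiveness (-0.08 ± 0.17, SE). MAOB, its relative, had 10389, 8220 and 8345 against 8026, 8505 and 8855 (0.08 ± 0.21, SE). KMO, of the kynurenine branch of tryptophan breakdown, had 8193, 8410 and 6002 against 6959, 6856 and 6270 (0.16 ± 0.22, SE). In all 3 the groups overlapped.

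**Figure D2:**
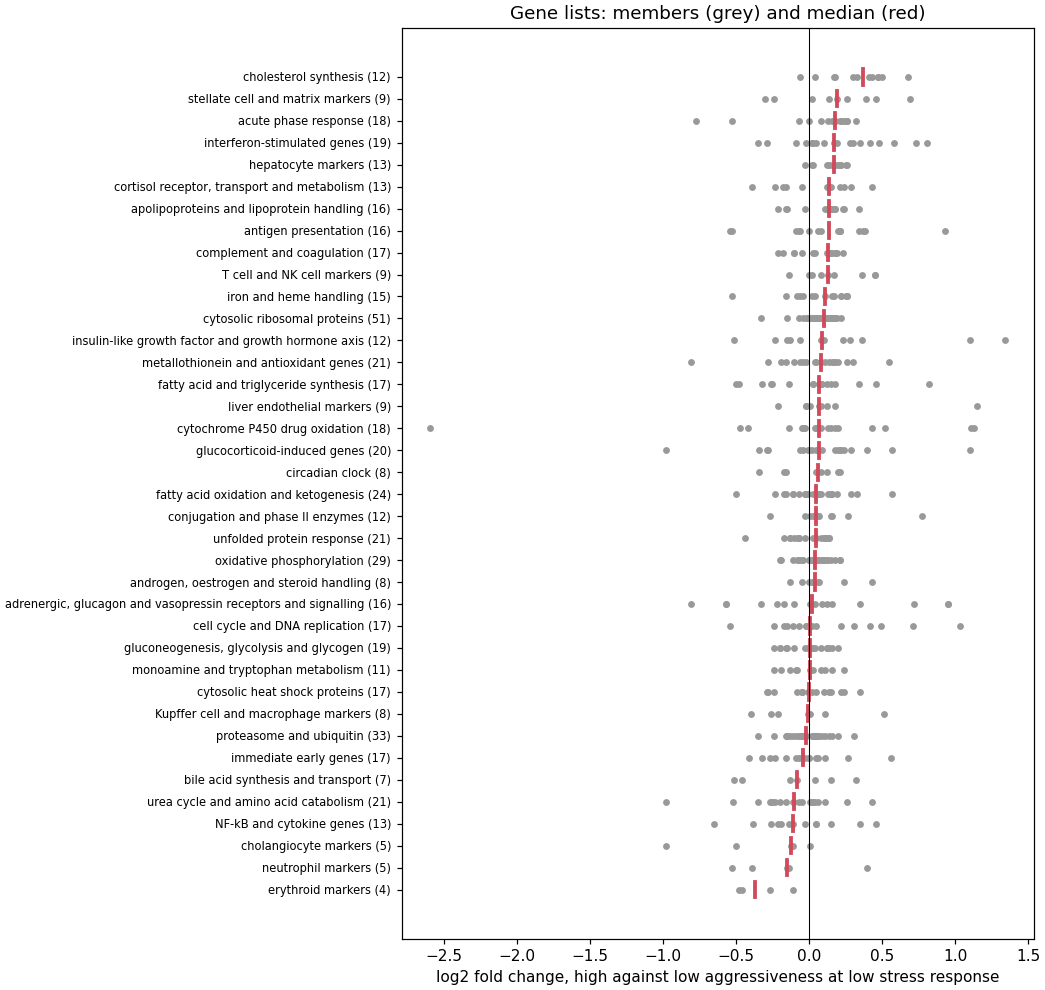
Each grey point is a gene of a list, at its log2 fold change for high against low aggressiveness at low stress response, and each red bar is the median of the list, with the number of measured genes in brackets (lists with at least 4 are drawn). Cholesterol synthesis has the highest median, 0.37, and the erythroid markers the lowest, -0.37, and the other medians lie between -0.15 and 0.19.

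Among the metabolic lists cholesterol synthesis had the largest median log2 fold change, 0.37. Of its 12 measured genes 11 were above 0, and 1 was higher at unadjusted p under 0.05, beside 2.02% of all probe sets. That gene, HMGCS1, the synthase of the precursor of mevalonate, had signals of 866, 669 and 1212 at high and 574, 449 and 644 at low aggressiveness, with no overlap (0.68 ± 0.23, SE). SQLE, squalene epoxidase, had 2267, 1402 and 2703 against 1749, 1142 and 1517 (0.50 ± 0.27, SE), and its groups overlapped. FDFT1, squalene synthase, had 5933, 6157 and 7069 against 4698, 4886 and 4800 (0.41 ± 0.24, SE), and TM7SF2, a later reductase, had 4029, 4216 and 5451 against 3447, 2883 and 3486 (0.47 ± 0.30, SE). The aggressive pigs lay above the others in FDFT1 and TM7SF2, and 3 of the 12 genes had such groups, beside 4.25% of all probe sets. The level of the list, the mean over its genes of the log2 value relative to 12 arrays, was 0.22, 0.07 and 0.52 in low-high 1 to 3 and -0.05, -0.14 and 0.02 in low-low 1 to 3. Its median stayed between 0.29 and 0.46 with each animal left out and was 0.22 in males alone. At high stress response 7 of the 12 were above 0, with a median of 0.08.

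In the other lipid lists no gene had unadjusted p under 0.05. Fatty acid and triglyceride synthesis had 11 of 17 genes above 0 (median 0.07, and -0.19 in males alone). FASN, fatty acid synthase, had signals of 584, 450 and 713 at high and 190, 405 and 416 at low aggressiveness, with no overlap (0.82 ± 0.41, SE). Its other 3 tested probe sets had 0.51, 0.16 and 0.53. Fatty acid oxidation and ketogenesis had 13 of 24 above 0 (median 0.05, and -0.01 under quantile normalization), and bile acid synthesis and transport 3 of 7 (median -0.08). Of 21 genes of the urea cycle and amino acid catabolism 13 were below 0, with a median of -0.10. GPT, alanine transaminase, had 331, 313 and 255 against 369, 360 and 611 (-0.52 ± 0.25, SE), with no overlap. GNMT, a methyltransferase that consumes methyl groups of methionine, had -0.35 ± 0.23 (SE). Gluconeogenesis, glycolysis and glycogen had a median of 0.01 over 19 genes, and PCK1, the key enzyme of glucose synthesis, had 26451, 26694 and 26837 against 24455, 23020 and 22261. The groups of PCK1 did not overlap, and its log2 fold change was 0.20 ± 0.15 (SE).

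The list of drug oxidation held cytochromes P450, FMO1 and FMO5, and also POR, NR1I2 and AHR. Of its 18 genes 11 were above 0, with a median of 0.07 that was -0.03 under quantile normalization. CYP2C42 had signals of 478, 1268 and 1553 at high and 604, 503 and 281 at low aggressiveness (1.13 ± 0.51, SE), and its second probe set had 0.15 ± 0.56 (SE). CYP2J34 had the widest difference of any gene, -2.59, with an SE of 1.80, and its signals ran from 81.9 to 579 at high and from 722 to 3256 at low aggressiveness, without overlap. At high stress response the same gene ran from 7.84 to 3317 and from 33.5 to 2407, and the spread of these animals enters the SE. Conjugation and phase II enzymes had a median of 0.05, with 10 of 12 above 0.

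Of 18 acute phase genes 15 were above 0 (median 0.18), of 17 complement and coagulation genes 12 (median 0.13), and of 16 apolipoproteins and lipoprotein genes 12 (median 0.14). Under quantile normalization these medians were 0.02, 0.03 and 0.03. Among the 15 acute phase genes above 0 were ALB, TF and TTR, which are also in the hepatocyte list. The 3 below 0 were CRP, HAMP (-0.53 ± 0.99, SE) and SAA2 (-0.07 ± 0.19, SE), and LBP had 0.00 ± 0.48 (SE). CRP, a plasma protein of inflammation, had 5638, 5334 and 5874 at high and 11006, 4623 and 17292 at low aggressiveness (-0.77 ± 0.39, SE). Without low-low 3, the animal with the highest signal, the value of CRP was -0.25. ITIH4 and A2M, further acute phase proteins, had 0.32 ± 0.18 and 0.26 ± 0.17 (SE), and other probe sets of A2M had 0.28 and -0.03. Of 19 interferon-stimulated genes 15 were above 0, with a median of 0.17 that was -0.11 in males alone. ISG15, a ubiquitin-like antiviral protein, had 2631, 2659 and 2970 against 1529, 1532 and 1626, with no overlap (0.81 ± 0.30, SE). XAF1 had -0.35 ± 0.17 (SE), with all aggressive pigs below the others, DDX58, a sensor of viral RNA, had 0.73 ± 0.41 and STAT2 had 0.30 ± 0.23 (SE). A second probe set of DDX58 had 0.02.

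Of 16 genes of antigen presentation 10 were above 0 (median 0.14), and TAP1, the peptide transporter, had signals of 691, 645 and 461 against 889, 640 and 1143 (-0.54 ± 0.23, SE), with overlap. Of 13 genes of NF-kB and cytokines 8 were below 0 (median -0.11), and none had unadjusted p under 0.05. Among genes of cell growth, 9 of 17 were above 0, with a median of 0.01. TOP2A, the topoisomerase of dividing cells, had 104, 62.9 and 63.3 against 26.9, 23.5 and 36.2 (1.03 ± 0.33, SE), with no overlap and a mean below 40.58 in the low group.

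The remaining lists were close to the median of all genes and held no gene with unadjusted p under 0.05. Cytosolic ribosomal proteins had 45 of 51 genes above 0 but a median of 0.10, which was -0.01 under quantile normalization. Oxidative phosphorylation had 20 of 29 above 0 (median 0.04), the unfolded protein response 12 of 21 (0.05), and cytosolic heat shock proteins 8 of 17 (0.00). Metallothionein and antioxidant genes had 13 of 21 above 0 (0.08), iron and heme handling 10 of 15 (0.11), and the circadian clock 5 of 8 (0.06). Proteasome and ubiquitin genes had 15 of 33 above 0 (-0.02), and immediate early genes 5 of 17 (-0.04).

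Markers of the cell types of the liver were read in the same way, and in whole tissue fewer cells of a type and less RNA per cell cannot be told apart. Of 13 hepatocyte markers 12 were above 0, with a median of 0.17, and it was 0.04 under quantile normalization. The level of the hepatocyte list was 0.02, -0.05 and 0.18 in low-high 1 to 3 and -0.06, -0.17 and -0.06 in low-low 1 to 3, without overlap. ALB had signals of 50536, 39361 and 61125 against 50016, 35648 and 40252 (0.25 ± 0.20, SE), and TF had 0.26 ± 0.19 (SE). Low-high 3 was the highest of the 6 in both genes, and without it the median of the list was 0.09. Many acute phase, complement and apolipoprotein genes are products of the same cells.

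Other cell types had mixed signs. Of 8 Kupffer cell and macrophage markers 4 were above 0 (median -0.01). CD5L, a protein secreted by Kupffer cells, had signals of 9162, 11370 and 8331 at high and 10247, 13276 and 14709 at low aggressiveness (-0.40 ± 0.16, SE), with overlap, and its second probe set had -0.25 ± 0.20 (SE). Of 5 neutrophil markers 4 were below 0 (median -0.15). These were NCF1 (-0.53 ± 0.25), S100A8 (-0.39 ± 0.38), S100A9 (-0.15 ± 0.58) and FCGR3A (-0.14 ± 0.24, SE each). The 1 marker above 0, NCF4, of the phagocyte oxidase, had 107, 92.8 and 133 against 81.2, 81.8 and 76.3 (0.40 ± 0.16, SE), with no overlap. Markers of T cells and NK cells had 7 of 9 above 0 (median 0.13, and -0.21 in males alone), stellate cells and matrix 7 of 9 (0.19), liver endothelium 6 of 9 (0.07) and cholangiocytes 1 of 5 (-0.12). The list of B cells and plasma cells had 1 measured gene, JCHAIN, at -0.03, and that of muscle, fat and pancreas had FABP4 at 0.14. All 4 erythroid markers were below 0, with a median of -0.37. AHSP, a chaperone of haemoglobin, had -0.48 ± 0.40, ALAS2, of erythroid haem synthesis, had -0.46 ± 0.44, and HBB and HBM, globins, had -0.27 ± 0.32 and -0.11 ± 0.26 (SE each). The level of this list was -0.27, -0.70 and 0.43 in low-high 1 to 3 and 0.24, -0.10 and 0.31 in low-low 1 to 3, so that the group with high aggressiveness held both the lowest and the highest animal. The part of these cell types in the differences of single genes was not tested.

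RNA quality was read from 3 control transcripts, and the groups did not overlap on 1 of them. The log2 ratio of the 3' to the 5' probe set of EF1A, which is higher where RNA is shorter or more degraded, was 0.834, 0.757 and 0.993 in low-high 1 to 3 and 0.734, 0.731 and 0.693 in low-low 1 to 3. The means were 0.861 ± 0.12 and 0.719 ± 0.023 (SD, n = 3 each), and a two-sided exact permutation test returned p = 0.1, the smallest that 3 against 3 animals allow (adjusted p = 0.4 over 4 tests). GAPDH had 0.779 ± 0.221 against 0.807 ± 0.179 and actin 5.15 ± 0.146 against 5.19 ± 0.097, and the 3 ratios averaged 2.26 ± 0.122 against 2.24 ± 0.0828 (SD, n = 3 each). Their exact p was 0.9, 0.7 and 0.7, and adjusted p was 0.9 for each. At high stress response EF1A had 0.962, 0.872 and 0.933 at high and 0.736, 0.685 and 0.748 at low aggressiveness, again without overlap. With the EF1A ratio as a covariate, which was added once the values were known, the probe sets at unadjusted p under 0.01 were 21 higher and 62 lower, in place of 83 and 30. The median of the hepatocyte list was then 0.00, that of the acute phase list 0.01, that of the ribosomal proteins 0.01 and that of cholesterol synthesis 0.32, beside a median of -0.07 over all probe sets. With this covariate the median of T cell and NK cell markers was -0.47, in place of 0.13, and the erythroid median moved further below 0. That of fatty acid and triglyceride synthesis was -0.2, in place of 0.07. Among the 12 animals the EF1A ratio was at least 0.757 at high and at most 0.748 at low aggressiveness. The covariate thus nearly coincides with aggressiveness, and the fit cannot tell RNA quality from aggressiveness. The part of RNA quality in the differences was not tested further.

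**Figure D3:**
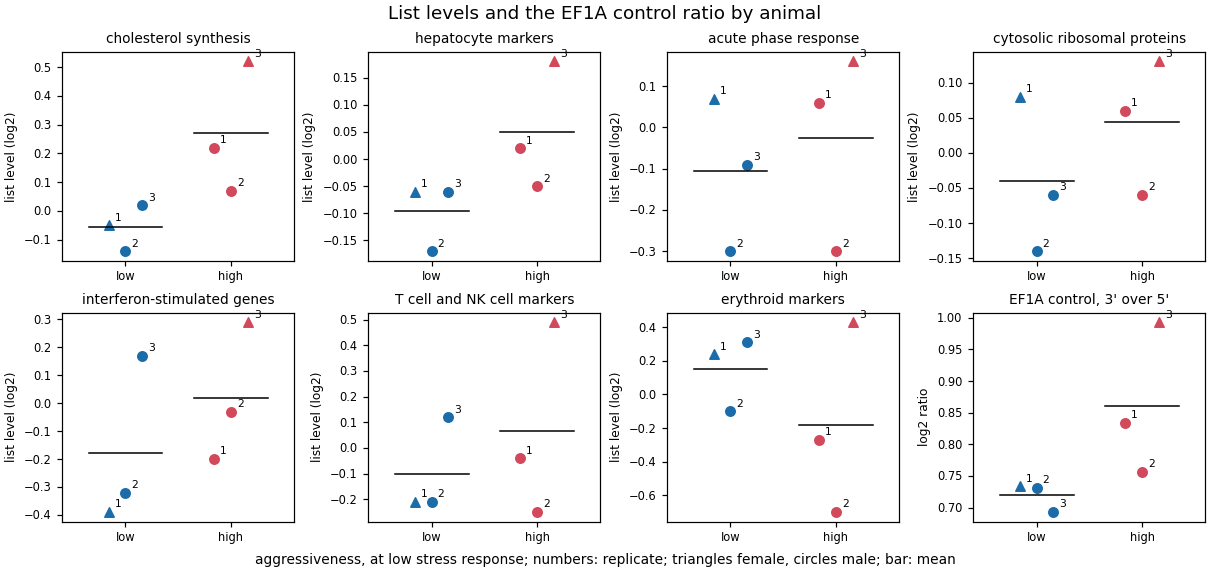
Each point is 1 animal of low stress response, at its level of a gene list (log2, relative to the mean of 12 arrays) or, in the last panel, its log2 ratio of 3' to 5' signal of the EF1A control, with numbers for the replicate, triangles for females and bars for group means. Cholesterol synthesis, hepatocyte markers and the EF1A ratio show groups that do not overlap, and low-high 3 is the highest animal in every panel.

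The same contrast at high stress response rests on 6 other animals. Their values entered the filter and the estimate of the spread by which these probe sets were chosen, but not the fold change at low stress response. Of the 83 probe sets higher at unadjusted p under 0.01, 36 were above 0 at high stress response (43.4%), against 51.0% of all 15999. Their median log2 fold change was 1.05 at low and -0.08 at high stress response. Of the 30 lower probe sets 12 were below 0 at high stress response, with medians of -0.87 and 0.06. At unadjusted p under 0.05 at high stress response, 4 of the 83 had the same and 10 the opposite direction. Of the 30, 2 had the same and 1 the opposite direction. Among all 15999 probe sets 267 had the same and 314 the opposite direction. Both contrasts share 1 estimate of the spread, so that probe sets chosen by small p in 1 contrast also tend to small p in the other. Of the 12 genes named on the higher side 4 were above 0 there, and of the 12 on the lower side 3 were below 0. WAS had 0.66 at low and 0.64 ± 0.17 (SE) at high stress response, where its signals were 185, 207 and 157 against 128, 111 and 94.6 without overlap. HSD11B2 had 0.43 and 0.39, NCF4 0.40 and 0.39, MAL2 -0.51 and -0.38, and CDHR4 -0.86 and -0.65.

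The difference between the contrasts was tested in the same model. With limma, 0 of 15999 probe sets (0%) had an adjusted p under 0.05 for it, and the smallest was 0.567. Unadjusted p under 0.05 was reached by 619, against 799.95 expected. At unadjusted p under 0.01, 66 had a more positive (0.413%) and 38 a more negative change at low stress response (0.238%). OGDHL, lower with aggressiveness at low stress response, had signals of 1130, 1174 and 851 at high and 219, 198 and 921 at low aggressiveness at high stress response. The difference of its log2 fold changes, -2.13 and 1.55, was -3.68 ± 0.68 (SE, unadjusted p = 0.000267, adjusted p = 0.766). Without high-low 3, the animal with 921, it was -4.37 and passed (limma, adjusted p = 0.0199).

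Of the 5 genes with the smallest p for a more positive change at low stress response, 4 had higher signals in the aggressive pigs there. These 4 had unadjusted p under 0.05 there, and lower mean signals in the aggressive pigs at high stress response. Choosing genes by the difference favours such opposite changes, and no probe set passed for it. The other gene was PRKAG3. At high stress response GRK5 had 92.8, 69.3 and 105 at high and 180, 155 and 116 at low aggressiveness. Its groups there did not overlap, and the difference of its log2 fold changes was 1.38 ± 0.29 (SE). IGFBP6 had 97.1, 129 and 83.7 against 230, 142 and 161 there, with no overlap and a difference of 2.03 ± 0.45 (SE). GNG3 had 44.8, 56.2 and 28.2 against 60.4, 92.1 and 59.5 there (difference 1.86 ± 0.42, SE), and CREB1 had 29.3, 69.0 and 8.68 against 48.7, 91.5 and 58.9 (difference 1.77 ± 0.40, SE). The mean of CREB1 lay below 40.58 in the aggressive group there as well, 35.7, and the size of its difference is uncertain, as is that of GNG3. Each of these 4 differences had an adjusted p of 0.814.

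Among the other genes with the smallest p for the difference, PRKAG3, RGS16, PROM1 and ITGAV varied mainly at high stress response. PRKAG3, a regulatory subunit of the AMP-activated kinase, had the smallest p (7.09e-05, adjusted p = 0.567), with 128, 129 and 82.5 against 85.9, 117 and 105 at low stress response, where its log2 fold change was 0.11 ± 0.18 (SE). At high stress response PRKAG3 had 35.7, 33.7 and 23.6 against 105, 158 and 98.3, with the aggressive group below 40.58. RGS16 had a difference of -2.38 ± 0.44 (SE), with 119, 83.4 and 57.0 against 7.55, 16.6 and 13.4 at high stress response, and without low-high 1 it was -2.82 and passed (limma, adjusted p = 0.0335). The mean of RGS16 in the low-aggressiveness group there, 12.5, lay below 40.58 and below the added constant of 16, so that the size of its difference rests on values near background. PROM1, a membrane protein of progenitor and biliary cells, had a difference of -1.74 ± 0.46 (SE) but -0.12 ± 0.33 (SE) at low stress response itself, and a mean of 8.77 in the low-aggressiveness group of high stress response, also below 40.58. ITGAV, an integrin subunit, had -0.34 at low and 0.78 at high stress response. STN1, of the complex that protects telomere ends, had -0.32 and 0.51. A second probe set of STN1 had -1.28 ± 0.37 (SE) at low stress response.

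**Figure D4:**
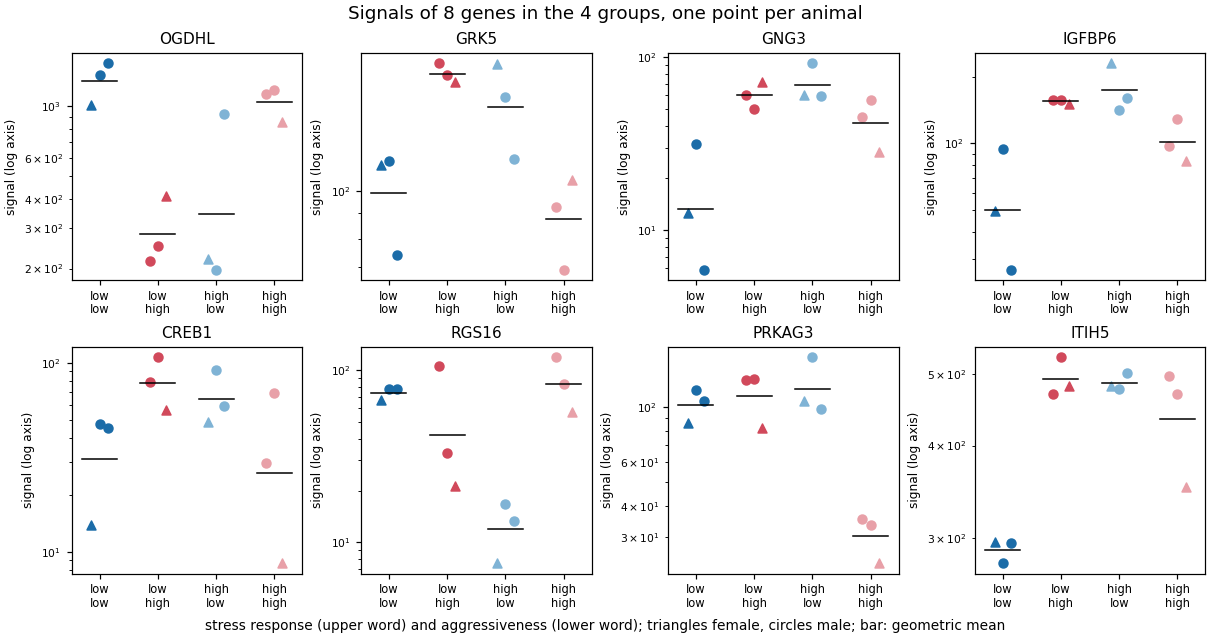
Signals of 8 genes on a log axis in the 4 groups, 1 point per animal, with bars for the geometric mean. The upper word under each column is the stress response and the lower word the aggressiveness. All genes drawn but ITIH5 were among those with the smallest p for the difference, a choice that favours opposite changes at low and high stress response. At low stress response OGDHL ran from 216 to 412 in the aggressive and from 1015 to 1529 in the other pigs, GRK5 and IGFBP6 lay higher in the aggressive pigs at low and lower at high stress response, and PRKAG3 was lowest in the aggressive pigs of high stress response (23.6 to 35.7).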

How the data were processed

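The authors deposited 1 signal per probe set and array, a linear intensity made with GCOS 1.1.1, per the submitters' processing notes. How arrays were scaled is not given in the sources used here; the mean signal after trimming 2% was 500.2 on each array, and values were used as deposited. Both traits and the sex of each animal were read from the labels. Nothing in the labels pairs the animals or says that they were independent beyond 1 array per animal. The p-values set group differences against the spread between these animals and hold only if the animals were independent.

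Of 24123 probe sets, 124 controls and then the 33.3% with the lowest mean were left out, which left 15999 with a mean signal of at least 40.58. Probe names came from GEO's platform table, with 1 symbol for 10099 probe sets, several for 198 and none for 13826; for 9989 of the 10099 the gene ID was found in RefSeq's gene table. A gene is its tested probe set with 1 symbol and the highest mean (5810 genes).

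Signals were taken as log2(signal + 16) and fitted with limma 3.58.1 in R 4.3.3 to 12 arrays, as 4 group means and sex, with 7 residual degrees of freedom, and p-values were adjusted over the 15999. Each group held 1 female, so that a fold change is the difference of group means. Named were the 12 genes in each direction with the smallest p, up to 4 members of a list with unadjusted p under 0.05 (and members with the smallest p in lists described at length), 5 genes in each direction for the difference, and preset genes of hormones and monoamines. RNA quality was compared with exact permutation tests, two-sided. The scripts were tested on simulated data, and figures were drawn with matplotlib 3.10.9. The animals, the 40 lists and the rules were chosen with earlier results of these data known.

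Alternatives were fits on the 6 arrays with and without sex, 12 arrays without sex, males only, other filters, scalings, constants and variance estimates, array weights, probe sets averaged per gene, each animal left out, and, added after the data were seen, the EF1A ratio as a covariate.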

Additional observations from a re-analysis of the deposited data

How the results depend on the processing

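No probe set had an adjusted p under 0.05 for aggressiveness at low stress response with limma under any of the alternatives run, while 511 had an unadjusted p under 0.05 as reported. At unadjusted p under 0.01 the 83 higher probe sets became 164 with no filter on low values, 43 with the lowest 50% left out and 21 with the EF1A ratio as a covariate. They were 43 (without low-high 3) to 96 (without high-low 1) with 1 animal left out. The 30 lower became 70 with no filter, 19 with the lowest 50% left out, 48 in males only, 47 with array weights and 62 with the EF1A ratio. With 1 animal left out they were 23 (without low-low 3) to 48 (without low-high 3), and 46 without low-high 2. The split of higher against lower, 83 to 30, was 72 to 45 under quantile normalization and 77 to 35 under median centring. It turned to 43 against 48 without the animal low-high 3, and to 21 against 62 with the EF1A ratio.

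For the difference between stress responses 0 passed, and 1 without low-high 1 (RGS16) or without high-low 3 (OGDHL). At unadjusted p under 0.01 the 66 more positive became 144 with no filter and 40 with the lowest 50% left out, and were 53 to 103 with 1 animal left out, the highest without high-high 1. The 38 more negative became 99 with no filter and 59 with array weights, and were 23 (without low-low 3) to 83 (without high-low 3) with 1 animal left out. Fewer or more probe sets enter under the filters, and the causes of the other shifts were not tested.

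Of 1888 values for 74 results of single genes, with a gene counted once per contrast, 8 changed sign. Some genes given above were not among them, such as FABP4, which was -0.04 without low-high 1, and JCHAIN, 0.24 without low-low 3. With the EF1A ratio TF was -0.01, FGB 0.00 and CYP2J34 1.12. With 1 animal left out HBB ran from -0.58 to 0.03, SERPINA6 from -0.45 to 0.08 and MAOB from -0.01 to 0.17, each changing sign without low-high 1. HBM ran from -0.27 to 0.17, changing sign without low-high 2, and MAOA from -0.17 to 0.07, without low-low 2. For 10 of the 40 lists none of the 26 alternatives gave a median of the opposite sign, cholesterol synthesis, erythroid, hepatocyte and acute phase lists among them. Medians were rounded to 2 decimals for this count, so that a median of 0.00 was not counted as a change. The hepatocyte list had such a median with the EF1A ratio. No paired analysis was possible because the labels give no replicate numbers. Signals near background limit genes whose group mean lies below 40.58.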
